A study of Mus musculus with 18 samples.

Results

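The nucleosome remodelling and deacetylase complex, NuRD, was examined in leukemia stem cells through 10 of its genes, which are 10 of the 54347 genes in the deposited table. Chd3 was selected on its adjusted p-value and fold change between mutant and control mice in an earlier analysis of these counts, and the other 9 genes, Chd4, Hdac1, Hdac2, Mta1, Mta2, Mbd2, Mbd3, Gatad2a and Gatad2b, were added because their products belong to the same complex. The difference in Chd3 is therefore given as a description that supports nothing further. All 10 symbols matched a single row each, and all 10 genes passed the filter on low counts.

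C57BL/6JRj mice carried an induced leukemia for 30 days, after which their bone marrow was taken and leukemia stem cells were isolated by fluorescence-activated sorting, 7000 per mouse. The labels give 4 mice of the genotype Prx1-Cxcl12-wild type, called control here, and 5 mice of the genotype Prx1-Cxcl12-mutant, called mutant here, with 2 technical libraries per mouse. As background, Prx1 marks mesenchymal cells of the limb skeleton, and Cxcl12 is a chemokine with which marrow stromal cells retain haematopoietic cells. The sources used here do not state the leukemia driver, the alleles, the sorting markers, or the age and sex of the mice. Polyadenylated RNA was read at its 3' ends by MARS-seq adapted to bulk RNA. The total estimated count ranged from 11766467 to 16784991 per control mouse and from 15959029 to 25485899 per mutant mouse, and 4 of the 5 mutant mice exceeded every control mouse. Levels are in CPM, which are counts scaled to a common library size with TMM factors, and are compared between mice for the same gene. Levels of different genes are not ranked, since the sources used here do not state whether a transcript length model entered these estimated 3' counts.

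NuRD joins an ATP-driven nucleosome remodelling activity to histone deacetylation in a single complex and is mostly known for keeping genes at low output. The remodelling subunit is CHD3 or CHD4, which exclude each other from a complex. HDAC1 and HDAC2 are the deacetylases, MTA proteins are the scaffold that holds them, MBD2 or MBD3 links the parts, and GATAD2A or GATAD2B bridges MBD proteins to the remodeller. In blood formation CHD4 is the better studied remodeller, with known roles in the maintenance and lineage choice of stem cells, and transcription factors such as those of the Ikaros family bring the complex to DNA.

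Among the remodelling subunits, Chd3 was lower in every mutant mouse than in every control mouse, while Chd4 differed little. Chd3 (ENSMUSG00000018474; GRCm38 chromosome 11, 69343273 to 69369406, minus strand, protein-coding) stood at 9.48, 7.42, 10.7 and 11.0 CPM in control mice 1, 2, 3 and 4. It stood at 5.23, 2.97, 3.76, 3.48 and 3.91 CPM in mutant mice 6, 7, 8, 10 and 12. The groups did not overlap, with the lowest control mouse, number 2, above the highest mutant mouse, number 6. The group means were 9.65 ± 1.63 CPM (SD, n = 4) and 3.87 ± 0.84 CPM (SD, n = 5). The edgeR fit on all genes put this at a log2 fold change of -1.32 (SE 0.18, 95% interval -1.72 to -0.92), or 2.50-fold lower in leukemia stem cells of the mutant mice. The adjusted p of Chd3 in this fit was 0.0368, for the same comparison that had selected it earlier. In that comparison 0.0694% of the 12973 tested genes were called at an adjusted p under 0.05, 0.0462% were called lower, and 4.0% had groups that did not overlap. In bulk samples, fewer cells that express Chd3 and less Chd3 RNA per cell cannot be told apart.

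The Chd3 values rest on modest counts, from 120 to 186 reads in a control mouse and from 64 to 95 in a mutant mouse. Control mouse 2 had a 95% Poisson interval of 6.18 to 8.84 CPM and control mouse 4 one of 9.49 to 12.7 CPM, without overlap. The same held for mutant mouse 6 (4.23 to 6.40 CPM) against mutant mouse 7 (2.33 to 3.73 CPM). These intervals cover counting error only and take each count as independent, which the sources used here do not state. Taken library by library, the 8 control libraries lay between 7.095 and 12.3 CPM and the 10 mutant libraries between 2.25 and 5.69 CPM, again with no overlap. The libraries of a mouse differed by a median of 1.13-fold, and at most by 1.62-fold in mutant mouse 12, where they read 2.87 and 4.64 CPM.

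**Figure D1:**
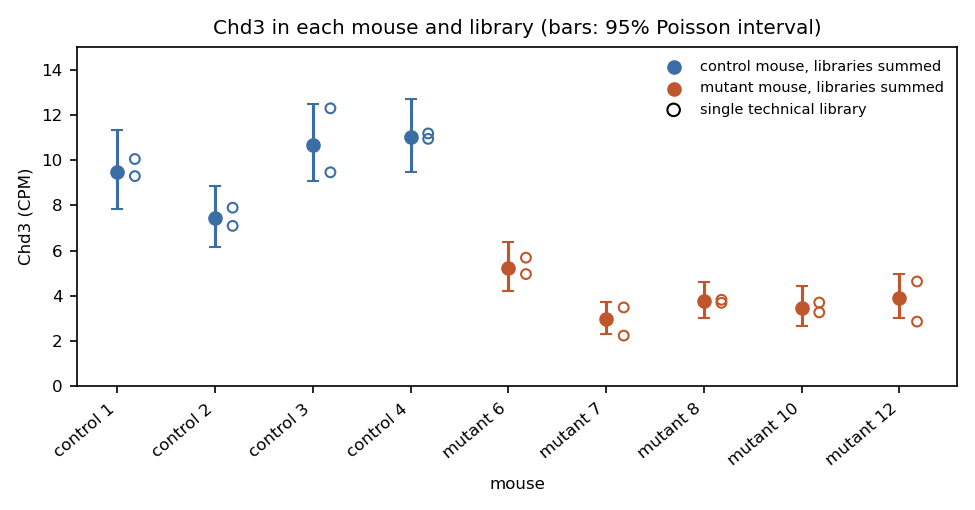
Chd3 level in CPM (vertical axis) for each of the 9 mice (horizontal axis), with filled points for the summed libraries, bars for the 95% Poisson interval and open circles for the 2 technical libraries. The control mice sit between 7.42 and 11.0 CPM and the mutant mice between 2.97 and 5.23 CPM.

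The log2 fold change of Chd3 stayed between -1.45 and -1.16 over 19 alternative settings, but its adjusted p passed 0.05 in 8 of them. In edgeR it did not pass without control mouse 1, 3 or 4 or without mutant mouse 7, 8, 10 or 12 (adjusted p of 0.0507 to 0.14). Adding the log2 of each mouse's total count to the edgeR model gave -1.16 (SE 0.26) at an adjusted p of 0.839, and 0 genes of the table were then called. Thinning every mouse to the smallest total instead gave -1.35 at an adjusted p of 0.0359.

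Chd4, the other remodelling subunit gene, read 371, 349, 353 and 352 CPM in the control mice. It read 331, 273, 319, 327 and 379 CPM in mutant mice 6, 7, 8, 10 and 12. Mutant mouse 12 was above all controls, mutants 6, 7, 8 and 10 were below all of them, and the groups overlapped. The log2 fold change of -0.13 (SE 0.10, 95% interval -0.34 to 0.09) did not pass (edgeR adjusted p = 0.69), and in the model that included total counts it was 0.04.

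The count ratio of Chd3 to Chd4 combines these values within a mouse, which removes the scaling between libraries. It was 0.0255, 0.0213, 0.0303 and 0.0313 in control mice 1, 2, 3 and 4. In mutant mice 6, 7, 8, 10 and 12 it was 0.0158, 0.0109, 0.0118, 0.0106 and 0.0103. The mean ratio was 0.0271 ± 0.0046 (SD, n = 4) in controls and 0.0119 ± 0.0023 (SD, n = 5) in mutants, a difference of -1.19 on the log2 scale with no overlap. As it contains Chd3, the ratio is a description as well, and it is a ratio of 3' counts and not of molecules of protein.

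Of the deacetylase genes, Hdac1 had the largest difference among the 9 members other than Chd3. Hdac1 read 203, 211, 202 and 208 CPM in the control mice. It read 239.7, 252, 280.5, 243 and 186 CPM in mutant mice 6, 7, 8, 10 and 12. Mutant mice 6, 7, 8 and 10 were above all controls and mutant mouse 12 was below all of them. The log2 fold change of 0.22 (SE 0.11, 95% interval -0.01 to 0.46) did not pass (edgeR adjusted p = 0.529). Without mutant mouse 12 it was 0.30 (adjusted p = 0.216), and in the model that included total counts it was 0.02. The technical libraries differed, with 0.39 in the first ones alone (unadjusted p in edgeR of 0.0170, adjusted p = 0.491) and 0.05 in the second ones alone (adjusted p = 0.93).

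Hdac2, which encodes the partner deacetylase, read 34.5, 33.1, 31.0 and 33.4 CPM in the control mice. It read 38.2, 43.4, 31.7, 32.2 and 33.5 CPM in mutant mice 6, 7, 8, 10 and 12, so that 2 mutant mice were above the controls and 3 were among them. Its log2 fold change was 0.12 (SE 0.11, edgeR adjusted p = 0.734). The highest value rested on a single library: in mutant mouse 7 the libraries read 53.4 and 29.4 CPM, a 1.82-fold gap, and without the first of them the log2 fold change was 0.003. The count ratio of Hdac1 to Hdac2 was 6.25 ± 0.28 (SD, n = 4) in controls and 6.80 ± 1.37 (SD, n = 5) in mutants, where mutant mouse 8 reached 8.84, and the groups overlapped.

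The scaffold genes Mta1 and Mta2, whose products bind the deacetylases and are the core on which the complex is built, had group means that nearly coincided. Mta1 read from 61.2 to 72.3 CPM in control mice and from 59.5 to 69.9 CPM in mutant mice, with a log2 fold change of -0.01 (SE 0.09, 95% interval -0.20 to 0.18). Mta2 read from 42.8 to 52.1 CPM in control mice and from 40.2 to 54.9 CPM in mutant mice, with a log2 fold change of 0.003 (SE 0.11, 95% interval -0.23 to 0.23). The intervals leave room for changes of either sign of about that width, and the sign of both genes turned under alternative settings. The count ratio of Mta1 to Mta2 was 1.35 ± 0.23 in controls (SD, n = 4) and 1.33 ± 0.10 in mutants (SD, n = 5).

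The methyl-CpG-binding domain genes are Mbd2, whose product binds methylated DNA, and Mbd3, whose product has largely lost that binding in mammals. Mbd2 read 113, 127, 95.7 and 120.0 CPM in the control mice and 117, 135, 112, 119.9 and 133 CPM in mutant mice 6, 7, 8, 10 and 12. Control mouse 3 was the lowest of all 9, and the other values were intermixed (log2 fold change 0.11, SE 0.10, edgeR adjusted p = 0.735). Mbd3 read from 149 to 173 CPM in control mice and from 151 to 180 CPM in mutant mice (0.05, SE 0.09, adjusted p = 0.869). In mutant mouse 7 the libraries gave Mbd3 at 121 and 195 CPM, and without the first of them its log2 fold change was 0.13. The count ratio of Mbd2 to Mbd3 was 0.70 ± 0.07 in controls (SD, n = 4) and 0.73 ± 0.10 in mutants (SD, n = 5), with overlap.

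The bridging subunit genes did not differ beyond the spread between mice either. Gatad2a read 46.9, 48.3, 47.6 and 47.4 CPM in the control mice, and from 43.4 to 57.0 CPM in the mutant mice, of which number 8 was the highest (log2 fold change 0.02, SE 0.09, edgeR adjusted p = 0.962). Gatad2b read from 16.3 to 24.2 CPM in control mice and from 17.9 to 25.3 CPM in mutant mice (0.02, SE 0.14, adjusted p = 0.97). Counts of Gatad2b are uncertain to a small extent, since an unconfirmed transcript on its own strand, Gm45477, lies within it and held 112 counts over the 9 mice. Chd3 and Chd4 each enclose small RNA genes on their own strand, which had 0 counts in every mouse. The count ratio of Gatad2a to Gatad2b was 2.33 ± 0.43 in controls (SD, n = 4) and 2.31 ± 0.51 in mutants (SD, n = 5).

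**Figure D2:**
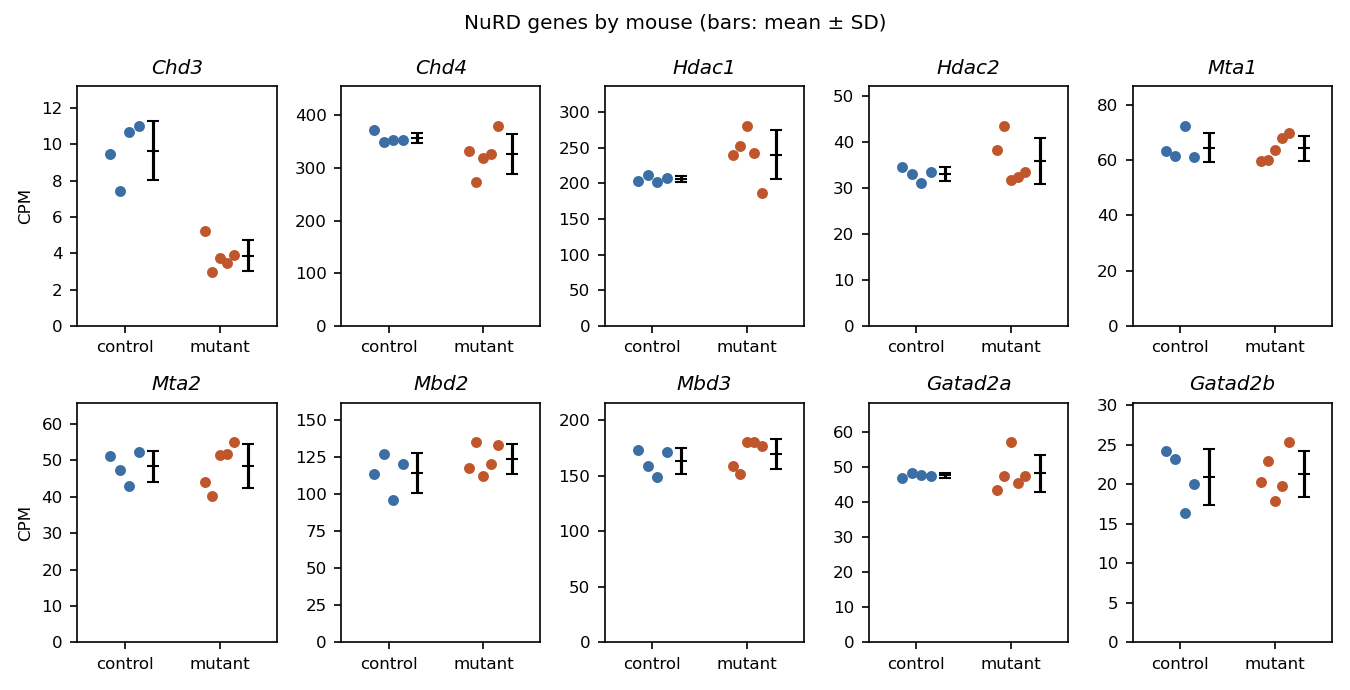
Level in CPM (vertical axes, each starting at 0) of the 10 NuRD genes in 4 control and 5 mutant mice (horizontal axes), with points for mice and black bars for the mean ± SD. The groups separate for Chd3 and overlap for the other 9 genes.

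Of the 10 members, 1 was called, Chd3, against the 0.0694% of all tested genes stated above, and that comparison is the one that selected it. Of the other 9, edgeR and DESeq2 each called 0, and 0 had an unadjusted p under 0.05, where 9.85% of all tested genes did. Over the whole table edgeR called 9 genes and DESeq2 called 93. Of these 9 genes, 7 had a log2 fold change above 0 and 2 below 0, with a median of 0.02 beside a median of 0.01 over all tested genes. The 9 fold changes lay between -0.13 and 0.22, and 8 of them, all but Hdac1, fell between the lower and upper quartile of all tested genes (-0.14 and 0.14). A p that misses the threshold does not show equality, and the widest of the 9 intervals, that of Gatad2b, ran from -0.28 to 0.32.

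**Figure D3:**
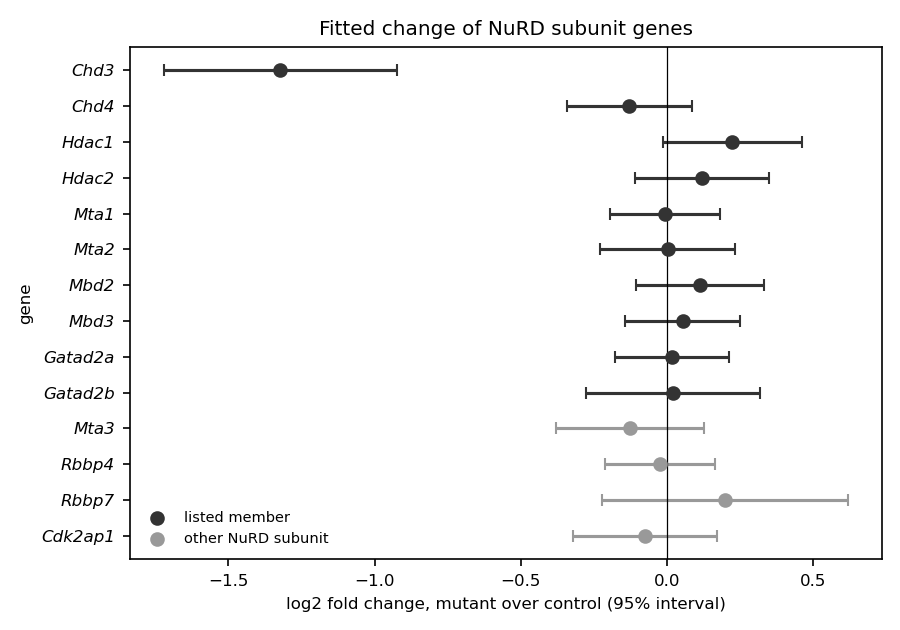
Log2 fold change of mutant over control (horizontal axis) with its 95% interval for the 10 members and for 4 further NuRD subunit genes (vertical axis). The interval of Chd3 runs from -1.72 to -0.92, and the intervals of the other 13 genes include 0.

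**Figure D4:**
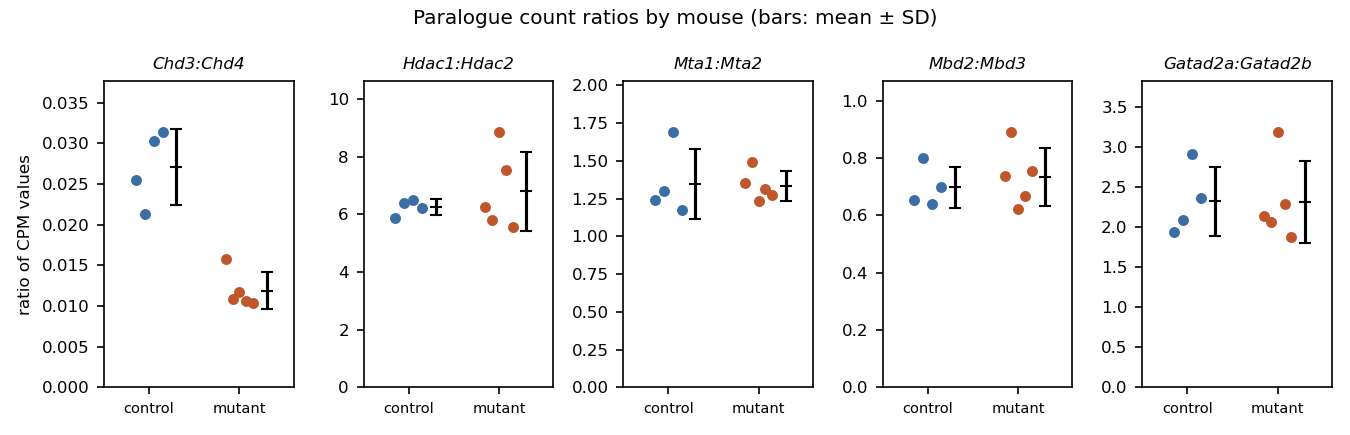
Ratio of the CPM values of paralogous subunit genes (vertical axes, each starting at 0) in 4 control and 5 mutant mice (horizontal axes), with points for mice and black bars for the mean ± SD. The ratio of Chd3 to Chd4 separates the groups, and the ratios of the 4 other pairs overlap.

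The spread among the mice of a group, as the SD in CPM, was larger in mutants for 6 of the 10 members and smaller for 4 (Chd3, Mta1, Mbd2 and Gatad2b). For Chd3 the mean was lower in mutants too, and its SD on the log2 scale was 0.26 in controls and 0.29 in mutants. For Mta1, Mbd2 and Gatad2b the SD was smaller in mutants on the log2 scale as well. The widest gaps were in Chd4, Hdac1 and Gatad2a. In control mice the SD was 10.1 CPM for Chd4, 4.45 CPM for Hdac1 and 0.59 CPM for Gatad2a, and in mutant mice it was 37.8, 34.2 and 5.21 CPM. Mutant mice 7 and 12 held the extremes of Chd4, 8 and 12 those of Hdac1, and 6 and 8 those of Gatad2a. The difference in spread was not tested. Across the deviations of the 9 mice from their group means, which share library and depth, Mta2 and Mbd3 had the highest correlation of all member pairs (Pearson r = 0.96, n = 9), followed by Mbd2 and Gatad2b (r = 0.85). Chd3 had r = 0.44 with Chd4 and between -0.52 and 0.10 with the other 8 members.

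The genes outside the complex whose deviations were most like those of Chd3 were Pigh (r = 0.93), Mef2d (r = 0.92), Ccdc18 (r = 0.92), Fbxw9 (r = 0.91) and Sf3a3 (r = 0.90), over 9 mice and among 8561 genes with a mean of at least 5 CPM. For 95% of these genes r was below 0.55. Each of the 5 had a lower r in at least 1 set of technical libraries: in the first libraries r was 0.27 for Mef2d, 0.57 for Pigh and 0.59 for Fbxw9, and in the second ones it was 0.44 for Fbxw9, 0.52 for Sf3a3 and 0.56 for Ccdc18. None of the 5 differed between the groups in edgeR (adjusted p of 0.342 to 0.792).

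The remaining NuRD subunit genes comprised Mta3, the histone-binding genes Rbbp4 and Rbbp7, Cdk2ap1 and the third remodeller gene Chd5. Of these 5, 4 were tested and 0 were called in edgeR, beside 0.0694% of all tested genes, or in DESeq2. In edgeR 0 had an unadjusted p under 0.05, beside 9.85% of all tested genes. Of the 4, 1 was above 0 and 3 below 0, with a median of -0.05. Mta3 averaged 15.7 ± 2.24 CPM in the 4 controls against 14.4 ± 0.90 CPM in the 5 mutants (-0.13, SE 0.12), and Rbbp7 averaged 110.4 ± 19.5 against 127 ± 36.3 CPM (0.20, SE 0.19). Rbbp4 averaged 272 ± 14.2 against 268 ± 19.2 CPM. Chd5, known mainly from neurons, did not pass the filter on low counts and had at most 10 counts in any mouse.

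Factors and partners known to work with NuRD formed a list of 14, of which 12 were tested. None was called in edgeR, beside 0.0694% of all tested genes, or in DESeq2. In edgeR 2 of the 12 had an unadjusted p under 0.05, beside 9.85% of all tested genes. Below 0 were 9 of the 12, with a median of -0.08. The lymphoid Ikaros-family gene Ikzf3 averaged 2.91 ± 0.72 CPM in the control mice against 1.72 ± 0.60 in the mutant mice (-0.78, SE 0.29, edgeR adjusted p = 0.404). Zfpm1, encoding the GATA cofactor FOG1, which binds NuRD, had 2.74 ± 0.55 and 1.68 ± 0.60 CPM (-0.71, SE 0.27, adjusted p = 0.411). Both overlapped between the groups and rested on low counts. Ikzf3 had 27 to 63 counts in a control mouse and 22 to 42 in a mutant mouse, and Zfpm1 had 36 to 51 and 20 to 45. In the model that included total counts Ikzf3 was at -0.60 and Zfpm1 at -0.42. Ikzf1, which encodes Ikaros itself, had 24.0 ± 1.82 and 23.9 ± 2.86 CPM.

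Among the 7 other CHD remodeller genes, 0 were called and 0 had an unadjusted p under 0.05, beside 0.0694% and 9.85% of all tested genes in edgeR. Their fold changes lay between -0.11 and 0.22, the top being Chd2 (0.22, SE 0.14), with control and mutant means of 27.4 ± 5.23 and 32.0 ± 4.32 CPM, followed by Chd1l at 0.13 (SE 0.12). Of the 5 other methyl-CpG-binding domain genes 0 were called, and 1, Mbd6, had an unadjusted p under 0.05 and groups that did not overlap. Over all tested genes 9.85% had such a p and 4.0% had such groups. Mbd6, which encodes a partner of a histone H2A deubiquitinase, read from 44.9 to 47.6 CPM in control mice and from 29.9 to 40.6 CPM in mutant mice (-0.36, SE 0.09, edgeR adjusted p = 0.254). For Mbd6 the first technical libraries alone gave -0.58 and the second ones alone -0.17, and the model that included total counts gave -0.24.

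A list of 26 genes held Hdac8 and genes of other complexes with class I deacetylases, the SIN3, CoREST, NCoR, MIER and MiDAC groups. It had 13 genes above 0, 13 below and a median of 0.001. edgeR and DESeq2 called 0, and 1 had an unadjusted p under 0.05, the MiDAC scaffold gene Elmsan1 (20.4 ± 2.65 to 15.7 ± 2.81 CPM, -0.38, SE 0.14, adjusted p = 0.403). The SIN3 scaffold gene Sin3b was next, at 0.18 (SE 0.08). Of the 21 tested SWI/SNF and ISWI remodeller genes, 0 were called and 2 had an unadjusted p under 0.05, the SWI/SNF subunit genes Arid2 (0.30, SE 0.11, edgeR adjusted p = 0.394) and Arid1b (0.36, SE 0.14, adjusted p = 0.408). Over these 6 lists together, 75 of 79 genes were tested, 6 had an unadjusted p under 0.05 and 1 had groups that did not overlap, shares to be read against the 9.85% and 4.0% of all tested genes.

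By position, 14 annotated genes lie within 100 kb of either end of Chd3, and 6 of them were tested. None was called in edgeR, and 1 of the 6 had an unadjusted p under 0.05, beside 9.85% of all tested genes. That gene was Kdm6b, encoding a histone H3 lysine demethylase, with control and mutant means of 12.2 ± 2.13 and 9.03 ± 1.18 CPM (-0.44, SE 0.15, edgeR adjusted p = 0.369, DESeq2 adjusted p = 0.226). Rnf227 had 4.29 ± 0.84 and 3.33 ± 0.27 CPM (-0.36, SE 0.17, adjusted p = 0.529). Naa38 was at -0.002 (SE 0.08), Cntrob at -0.09 (SE 0.14), Cyb5d1 at 0.14 (SE 0.30) and Trappc1 at 0.19 (SE 0.24).

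The label of leukemia stem cells was set against 10 progenitor and myeloid leukemia markers, all of which were detected and tested. Their log2 fold changes were below 0 for 7 and above 0 for 3. Among the 7 were Hoxa9 with control and mutant means of 242.5 and 207 CPM, Meis1 at 39.0 and 36.3 CPM, and Kit at 25.6 and 19.0 CPM. The 3 were Mpo at 838 and 1184 CPM, Elane at 2156 and 2556 CPM, and Flt3 at 1.51 and 3.15 CPM. The other 8 marker lists stand for other cell types, and their genes ran from none to well expressed. Cd3e, Cd3g, Mrc1, Cma1, Ppbp and Cdh5 had at most 3 counts in any mouse. Nkg7, a granule gene of NK and T cells, stood at 126 and 136 CPM in control and mutant mice, Cd79b of B cells at 61.8 and 53.5 CPM, Pecam1 of endothelium at 43.6 and 37.4 CPM, and Adgre1 of macrophages at 40.1 and 27.8 CPM. The summed level of each of the 9 marker lists overlapped between the groups. Mature neutrophil markers summed to between 423 and 935 CPM in control mice and between 199.6 and 433 CPM in mutant mice, with 4 of 7 genes below 0 and 3 above. Among them the granule genes Camp and Ltf went opposite ways, Camp with means of 386 and 139 CPM (-1.47, SE 0.27, edgeR adjusted p = 0.115) and Ltf with means of 4.82 and 13.5 CPM (1.47, SE 0.39, adjusted p = 0.259). Megakaryocyte markers summed to between 30.3 and 41.1 CPM in control mice and between 21.6 and 33.2 CPM in mutant mice, with 2 of 3 tested genes below 0. Gp1bb, with control and mutant means of 29.0 and 22.1 CPM, made up most of these sums, and Gp9 was above 0. Of the 33 tested markers of the 9 lists, 1 was called, Itga2b, lower in mutants, beside 0.0694% of all tested genes. Itga2b had control and mutant means of 2.48 and 0.67 CPM, on 34 to 39 counts in a control mouse and 7 to 17 in a mutant mouse. The groups did not overlap for 4 of the 33, or 12.1%, beside 4.0% of all tested genes, and these were Kit, Camp, Adgre1 and Itga2b, all lower in mutants. The part of these marker differences in the Chd3 result was not tested.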

How the data were processed

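RNA of sorted leukemia stem cells was measured in 18 libraries of 9 mice. The authors deposited estimated counts per gene, not scaled to a common total, and 11.3% of the values were not whole. Per the submitters' processing notes, bcl2fastq, FastQC, Salmon 1.3 and GRCm38 were used, with no role stated. The sources used here give neither an annotation release nor a strand setting, nor whether molecular identifiers were counted. The first 18 characters of the row names were matched to GENCODE mouse release 21 (GRCm38).

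Counts of both libraries were added per mouse, rounded, and went into edgeR 4.0.16 under R 4.3.3 (filterByExpr at a minimum count of 10, TMM, quasi-likelihood F-test, 9 mice, no covariate, Benjamini-Hochberg over 12973 genes, threshold 0.05). A standard error is the unshrunk coefficient over the root of F, and 95% intervals use the fit's t quantile. Nothing says whether mice shared a cage, day or batch. Simulated data with known changes were used to test the edgeR fit, and not the DESeq2 or voom fits. The members and lists were chosen with earlier results of these data known. Named were all members, the 2 genes with the smallest p of each list, genes called in a list, and the 5 tested genes most correlated with Chd3. A gene that this rule names is not reported here. Ikzf1, Rbbp4, the other neighbours of Chd3 and the cell markers were named after their values were seen. Alternatives were RLE factors, DESeq2 1.42.0, no low-count filter, limma 3.58.1 voom over the 18 libraries, the mouse being a random effect, each technical library alone, the total count as a covariate, thinning to 11766467 counts and leaving out each mouse. Omitting mutant mouse 7's first library was added after the data had been seen.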

Additional observations from a re-analysis of the deposited data

Results flagged for a closer look

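Among 48 sets of values, those of 24 named genes in the control and in the mutant mice, 1 held a mouse far from the others of its group by Dixon's criterion, which chance meets in about 1 set in 20. Rnf227, a neighbour of Chd3, stood at 3.80 CPM in mutant mouse 8, above the other mutant mice and within the range of the control mice. For the 10 NuRD genes no mouse met the criterion.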

How the results depend on the processing

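The number of genes called, 9 with edgeR on the mouse sums, was 93 with DESeq2, 21 with no low-count filter, 62 with voom on the 18 libraries and 60 in the same fit with a technical replicate block, 0 in the first and 3 in the second technical libraries, 0 with the total count as a covariate, 0 without the first library of mutant mouse 7, and from 0 to 7 when a mouse was left out. The log2 fold change of Chd3 was -1.36 with the technical replicate block and -1.35 without it, and passed in both. It lost its call in the first technical libraries (-1.44, adjusted p = 0.146), in the second (-1.25, adjusted p = 0.141), with the covariate (-1.16, adjusted p = 0.839) and when mutant mouse 7 kept only its second library (-1.35, adjusted p = 0.0598). Leaving out a mouse gave -1.45 to -1.24, and 2 of these 9 fits called Chd3, those without control mouse 2 or mutant mouse 6. The single-library, left-out-library and left-out-mouse settings hold fewer counts or mice, whereas the covariate setting holds all of them and estimates a further term. Thinning to the smallest total kept the call (-1.35, adjusted p = 0.0359). The cause of the lost calls was not tested. The other 9 members and the 6 pathway lists had 0 calls in all settings run.

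Sign changes occurred in 5 members, Chd4, Mta1, Mta2, Gatad2a and Gatad2b, and in Mta3 and Chd1l, none of them called. Between the first and the second technical libraries, the log2 fold change differed by over 1.5 times or in sign for 7 of 14 named list genes. These were Mta3, Chd1l, Mbd6, Sin3b, Arid2, Arid1b and Kdm6b. With the covariate Chd4 was at 0.041, Mta1 at 0.056, Gatad2a at -0.083 and Chd1l at -0.027. In the first technical libraries Mta1 was at 0.034, Mta2 at -0.192, Gatad2a at -0.029, Gatad2b at -0.146 and Mta3 at 0.018. Mta1 was also at 0.003 with no low-count filter, 0.009 after thinning and 0.011 without the first library of mutant mouse 7. Mta2 was at -0.001 with RLE factors and with DESeq2, -0.022 with voom and the technical replicate block, -0.019 with voom without it, and -0.008 without that library. Leaving out a mouse gave -0.039 to 0.054 for Mta1, -0.049 to 0.065 for Mta2, -0.049 to 0.054 for Gatad2a and -0.079 to 0.094 for Gatad2b. For Chd3, the depth gives 64 to 186 counts per mouse, and a level of 3 counts was 0.255 CPM in the shallowest mouse. No pairing across groups is given by the labels.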
